A study of Homo sapiens with 2 samples.

Results

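The genes described are 38 hypoxia and glycolysis genes, 19 targets of the hypoxia-inducible factors (HIF) and 19 genes of glycolysis, among 36601 genes counted in OVCAR5 tumour cells. They were chosen by name and not by a measured value. OVCAR5 is a human ovarian carcinoma line. Its cells had grown as tumours in NSG-b2m-/- mice, a severely immunodeficient strain that also lacks beta-2-microglobulin, and all carried an IFNy-sensing reporter. Tumours were minced and digested, the cells were kept in culture for 6 h, and CFP+ tumour cells, which the labels call bystander cells, were sorted from the pool. The labels list 15 entries from 5 tumours in a single pooled 10x Genomics library, 5 with 100 ng/ml IFNy and 10 ng/ml TNFa, 5 with 10 ng/ml TNFa and 5 unstimulated. All of them share the line, the reporter, the host strain, the digestion and the sort, and the labels do not say how many clones the reporter line comprises.

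The labels do not pair hashtags with treatments. The groups used below, called both, TNF and none, were inferred from cytokine response genes of these same cells, so they are not labelled treatments and no test was run between them. In the both group, 12 leading IFNy response genes summed to between 174 and 269 UMIs per 10000, against 5.41 to 11.1 in the TNF group and 3.32 to 4.97 in the none group. A sum over 12 leading TNF response genes was 78.7 to 96.8 in the both group, 55.4 to 85.5 in the TNF group and 6.28 to 9.85 in the none group. Those values were part of what set the groups and are not a result. Of 5269 barcodes, 3538 were kept as cells and 3144 carried a clear pair of hashtags, which placed them in 15 hashed samples of 49 to 630 cells and 582102 to 7324691 UMIs. Median depth per cell was 10942 to 12405 UMIs and the median mitochondrial share 12.2% to 14.7%. Of 8 epithelial tumour markers, KRT18, KRT8, KRT19, KRT7 and EPCAM were at 4.19 to 24.2 UMIs per 10000 over all hashed samples, and PAX8, MUC1 and CDH1 at 0.175, 0.0926 and 0.0329. Among markers of other cell types, 6 of 8 T or NK cell markers and 5 of 5 erythroid markers had no count, and the fibroblast and endothelial lists summed to 0.0243 and 0.0248. The myeloid list summed to 0.231, most of it LYZ (0.144) and CD14 (0.0532), while its markers CD163 and FCGR3A had no count.

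When oxygen is plentiful, prolyl hydroxylases (EGLN1, EGLN2, EGLN3) mark the alpha subunits of HIF, and the VHL ubiquitin ligase then has them degraded. When oxygen is scarce the subunits persist, pair with ARNT and bind promoters and enhancers at a short core sequence, the hypoxia response element. Their targets include the hydroxylases EGLN1 and EGLN3, blood vessel growth factors, some glucose transporters and most glycolytic enzymes. Both gene sets are therefore commonly read together as a hypoxia response in solid tumours.

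Promoters are shown for EGLN3, ANGPTL4, PDK1, KDM3A and PFKFB3, which with HILPDA (no window at hand) were the members at least 2 times their group median in 3 hashed samples described below. Those of SLC2A1, SLC16A3 and HK1 are shown because these members were called between the inferred groups. Each runs 5′ to 3′ on the gene's strand, from 250 bases before to 50 bases after an annotated start, from RefSeq on GRCh38.p14. Where a gene has several windows, the first that holds a match is shown. Capitals mark the HIF core ACGTG or GCGTG, read on both strands, so that CACGT and CACGC count too. The windows lie at chr14:33951025-33951324 (- strand) for EGLN3, chr19:8363905-8364204 (+ strand) for ANGPTL4, chr2:172555840-172556139 (+) for PDK1, chr2:86441121-86441420 (+) for KDM3A, chr10:6144671-6144970 (+) for PFKFB3, chr1:42958819-42959118 (-) for SLC2A1, chr17:82228792-82229091 (+) for SLC16A3 and chr10:69317931-69318230 (+) for HK1.
EGLN3: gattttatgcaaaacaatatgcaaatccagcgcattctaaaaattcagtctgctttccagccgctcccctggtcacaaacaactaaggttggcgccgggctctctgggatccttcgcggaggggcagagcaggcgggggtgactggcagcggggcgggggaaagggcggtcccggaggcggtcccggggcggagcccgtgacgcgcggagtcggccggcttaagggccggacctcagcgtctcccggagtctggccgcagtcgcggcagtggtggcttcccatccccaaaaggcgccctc
ANGPTL4: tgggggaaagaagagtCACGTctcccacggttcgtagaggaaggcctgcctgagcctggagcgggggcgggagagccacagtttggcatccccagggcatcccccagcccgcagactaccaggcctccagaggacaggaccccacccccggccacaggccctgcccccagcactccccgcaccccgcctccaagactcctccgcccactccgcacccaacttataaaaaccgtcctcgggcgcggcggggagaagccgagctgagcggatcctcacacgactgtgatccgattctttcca
PDK1: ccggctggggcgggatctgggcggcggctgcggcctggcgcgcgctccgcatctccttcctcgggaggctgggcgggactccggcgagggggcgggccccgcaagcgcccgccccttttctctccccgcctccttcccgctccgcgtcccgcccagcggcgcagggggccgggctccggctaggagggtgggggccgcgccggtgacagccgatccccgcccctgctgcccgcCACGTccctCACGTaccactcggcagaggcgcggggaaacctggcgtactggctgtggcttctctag
KDM3A: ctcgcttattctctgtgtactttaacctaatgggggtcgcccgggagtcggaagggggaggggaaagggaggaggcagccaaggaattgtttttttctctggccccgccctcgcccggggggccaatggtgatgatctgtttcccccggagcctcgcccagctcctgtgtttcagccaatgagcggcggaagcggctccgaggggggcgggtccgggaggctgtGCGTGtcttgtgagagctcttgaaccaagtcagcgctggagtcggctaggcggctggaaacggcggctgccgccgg
PFKFB3: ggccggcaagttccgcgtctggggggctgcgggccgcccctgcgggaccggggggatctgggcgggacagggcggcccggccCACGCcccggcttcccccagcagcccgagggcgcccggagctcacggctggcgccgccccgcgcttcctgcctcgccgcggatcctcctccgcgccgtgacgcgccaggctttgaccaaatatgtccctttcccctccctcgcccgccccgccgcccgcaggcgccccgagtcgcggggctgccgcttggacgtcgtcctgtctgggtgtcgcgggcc
SLC2A1: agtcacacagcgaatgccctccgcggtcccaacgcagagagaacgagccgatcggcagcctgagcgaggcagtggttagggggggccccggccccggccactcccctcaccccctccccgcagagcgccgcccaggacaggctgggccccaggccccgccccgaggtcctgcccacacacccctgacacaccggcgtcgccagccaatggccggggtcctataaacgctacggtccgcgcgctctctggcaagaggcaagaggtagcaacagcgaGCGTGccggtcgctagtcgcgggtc
SLC16A3: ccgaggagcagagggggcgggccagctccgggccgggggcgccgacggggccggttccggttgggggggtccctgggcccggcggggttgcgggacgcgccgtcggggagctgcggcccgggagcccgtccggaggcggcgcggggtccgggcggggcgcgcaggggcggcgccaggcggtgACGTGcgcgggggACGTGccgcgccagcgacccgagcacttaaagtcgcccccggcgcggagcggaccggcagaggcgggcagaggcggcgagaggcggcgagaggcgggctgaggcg
HK1: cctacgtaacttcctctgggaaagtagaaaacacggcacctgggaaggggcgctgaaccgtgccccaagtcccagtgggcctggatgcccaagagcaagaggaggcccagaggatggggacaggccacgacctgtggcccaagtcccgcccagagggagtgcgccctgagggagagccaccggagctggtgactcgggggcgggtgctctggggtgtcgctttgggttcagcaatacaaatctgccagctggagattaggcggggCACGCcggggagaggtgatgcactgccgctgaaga

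The ANGPTL4 window held a single ACGTG core, the PDK1 window a pair of them close to the start, and the KDM3A, PFKFB3, SLC2A1 and HK1 windows 1 GCGTG core each. The SLC16A3 window held ACGTG 2 times, and the EGLN3 window held neither core. HK1 has 7 windows, SLC16A3 has 5, and PDK1, KDM3A and PFKFB3 have 2 each. The HK1 windows before the one shown held neither core. The PFKFB3 window not shown held ACGTG 2 times. RefSeq windows matched 33 of the 38 members, 15 HIF targets and 18 glycolytic genes, with 57 windows between them. ACGTG, on either strand, stood in at least 1 window of 23 members (69.7%), against 24.9% of all 27305 genes with a window. By window the shares were 47.4% of the members' windows and 21.4% of all 35116 windows. GCGTG stood in at least 1 window of 20 members (60.6%), against 40.6% of all genes, and by window the shares were 47.4% and 36.5%. The genes compared were all those with a window, not matched to the members for expression or base composition. The motifs may overlap one another, and CACGTG holds ACGTG on both strands. A match is a string of letters and not a measured binding site, and a window without one says nothing about binding elsewhere.

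Of the 38 members, 34 were measured, with a mean over the 15 hashed samples of at least 0.05 UMIs per 10000 (17 of 19 in each set), among 9361 genes that passed the same minimum. Below it were BNIP3, a mitophagy receptor, with 14 counts in all, SLC2A3, a second glucose transporter, with 67, PFKFB4, a regulator of glycolytic flux, with 161, and ANKRD37, a HIF target of little known function, with 238. BNIP3 has 39 named pseudogenes in GENCODE 29, and the part of reads shared between copies in its low count was not tested. ALDOA, an aldolase, passed narrowly with 226 counts. It overlaps AC093512.2 on the same strand, so its counts are uncertain. Counts of GAPDH (62 named pseudogenes), PGAM1 (13), LDHA (6) and PKM (5) are uncertain to the extent that reads were shared with those copies. Levels below are summed UMIs of a gene per 10000 UMIs of the hashed sample, and intervals are exact 95% Poisson intervals, which cover the error of counting alone.

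In each inferred group a single hashed sample stood above the others for the HIF target members: HTO3+HTO6 in the both group, HTO3+HTO8 in the TNF group and HTO4+HTO10 in the none group. The summed HIF target level was 10.8 in HTO3+HTO6, against 5.21 to 6.54 in the other 4 hashed samples of the both group. It was 14.9 in HTO3+HTO8, against 6.12 to 8.81 in the rest of the TNF group. It was 18.7 in HTO4+HTO10, against 5.14 to 7.71 in the rest of the none group. With EGLN3 and ANGPTL4 left out of the sum, the same 3 samples were still the highest of their groups, at 8.08, 10.8 and 11.9, against at most 5.81, 8.06 and 5.95 in the others. These samples were singled out after their values were seen, and the labels do not say whether they come from the same tumour.

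**Figure D1:**
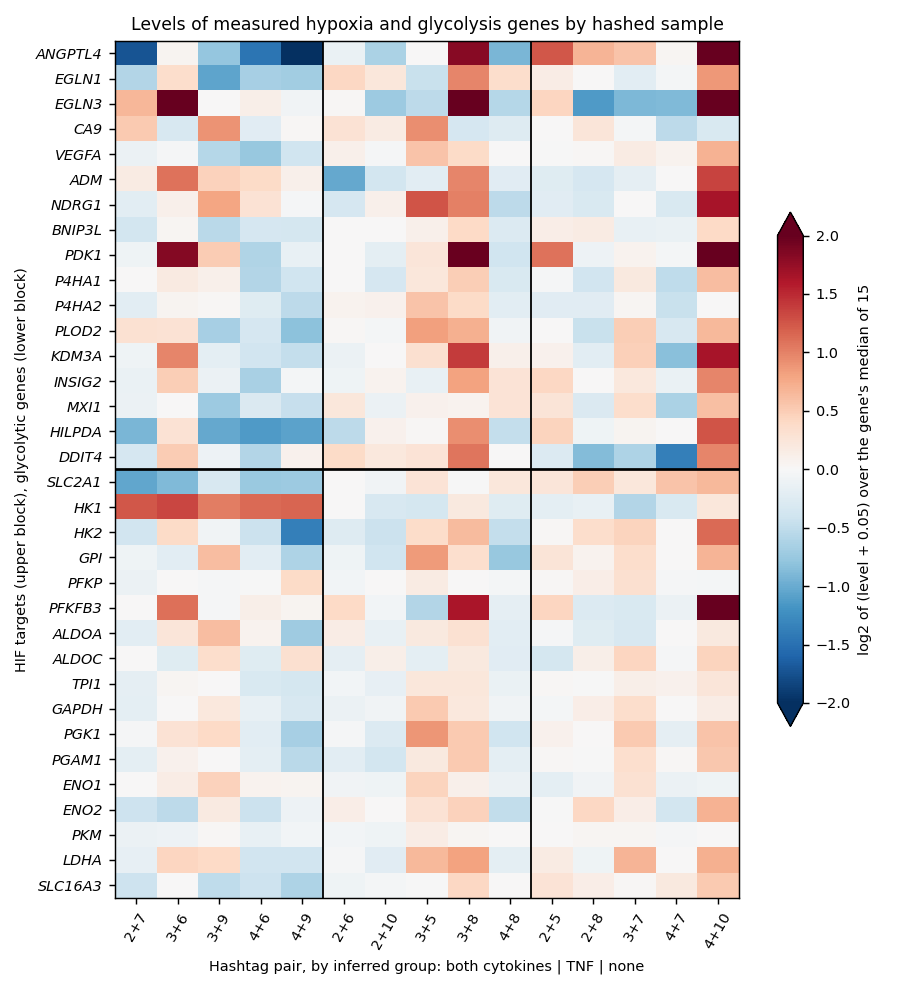
Each row is a measured gene and each column a hashed sample, named by its hashtag numbers and ordered as both, TNF and none. Colour gives log2 of the level plus 0.05 over the gene's median of 15, with HIF targets above the black line and glycolytic genes below it. Columns 3+6, 3+8 and 4+10 are red for most HIF targets, and the HK1 row is red across the both group.

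Gene by gene, 10 of 17 measured HIF targets in HTO3+HTO6 reached at least 1.5 times the median of their group, where 2.88% of all measured genes did. The count was 11 of 17 in HTO3+HTO8, where 2.19% of all genes did, and 13 of 17 in HTO4+HTO10, where 2.81% did. In the other 12 hashed samples it was between 0 and 4 of 17. The highest of these, 4 of 17, was in HTO3+HTO9 of the both group, a sample of 53 cells in which 7.51% of all genes passed. In the rest of the both group it was 3 in HTO2+HTO7 (background 1.76%) and 0 in HTO4+HTO6 (2.01%) and HTO4+HTO9 (5.90%). In the TNF group it was 3 in HTO3+HTO5 (background 5.20%), 1 in HTO2+HTO6 (1.59%) and 0 in HTO2+HTO10 (2.62%) and HTO4+HTO8 (2.53%). In the none group it was 3 in HTO2+HTO5 (1.59%) and 0 in HTO2+HTO8 (2.00%), HTO3+HTO7 (3.71%) and HTO4+HTO7 (2.09%). Over 25 settings, the original included, the counts lay between 7 and 12 in HTO3+HTO6, 8 and 12 in HTO3+HTO8 and 10 and 14 in HTO4+HTO10. Glycolytic genes passed less widely in the same samples, with 3, 5 and 3 of 17. Such counts were not particular to them: HTO3+HTO5 had 5 and HTO3+HTO9 had 3. HTO4+HTO9 and HTO2+HTO5 had 1 each, and the rest 0.

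Median depth in HTO3+HTO6, HTO3+HTO8 and HTO4+HTO10 was 11421, 11096 and 10942 UMIs, the last 2 the lowest of the TNF and none groups, and the median mitochondrial share was 13.6%, 13.6% and 13.3%. Their integrated stress genes (ATF4, DDIT3, TRIB3 and others) summed to 12.4 in HTO3+HTO6 and 11.6 in HTO3+HTO8, the lowest of their groups, and to 11.5 in HTO4+HTO10, where only HTO4+HTO7 was lower at 11.1. Epithelial markers summed to 47.3, 64.5 and 86.7, the highest of each group (in the TNF group level with HTO4+HTO8), against 39.9 to 41.6, 43.9 to 64.5 and 70.8 to 83.6 in the others. The part of these in the HIF target levels was not tested.

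A gene was called spanning when its highest hashed sample was at least 4 times its lowest, with an interval of that ratio that began no lower than 2. By this rule 9 of 17 measured HIF targets and 4 of 17 measured glycolytic genes spanned the 15 samples, where 10.1% of all measured genes did. Just inside it were ENO2, at 4.08-fold, and HK1, at 4.34-fold. Just outside it were PLOD2, which modifies collagen for crosslinking, at 4.0-fold with a lower bound of 1.84, and MXI1, a repressor of MYC targets, at 4.15-fold with a lower bound of 1.36. Without HTO3+HTO6, HTO3+HTO8 and HTO4+HTO10 together, 4 of 17 HIF targets (ANGPTL4, EGLN3, PDK1 and HILPDA) and 2 of 17 glycolytic genes (HK1 and HK2) still spanned the remaining 12, where 8.58% of all measured genes did.

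Among the oxygen sensors, EGLN3, a HIF prolyl hydroxylase on chromosome 14 (33924231 to 34462774, - strand, GRCh38), had a level far above the rest in the same 3 samples. It measured 0.815 in HTO2+HTO7, 2.23 in HTO3+HTO6, 0.493 in HTO3+HTO9, 0.536 in HTO4+HTO6 and 0.468 in HTO4+HTO9 of the both group. In the TNF group it was 0.503 in HTO2+HTO6, 0.280 in HTO2+HTO10, 0.326 in HTO3+HTO5, 2.46 in HTO3+HTO8 and 0.315 in HTO4+HTO8. In the none group it was 0.682 in HTO2+HTO5, 0.198 in HTO2+HTO8, 0.242 in HTO3+HTO7, 0.243 in HTO4+HTO7 and 3.39 in HTO4+HTO10. The 3 high samples (95% intervals 2.08 to 2.39, 2.34 to 2.57 and 3.2 to 3.59) lay above all the others, the inferred groups overlapped, and only 4.12% of the variance of the log2 level lay between the groups. EGLN1, the main HIF prolyl hydroxylase, was flatter. It measured 0.278, 0.577, 0.185, 0.257 and 0.254 in the both group, 0.600, 0.522, 0.309, 0.919 and 0.578 in the TNF group, and 0.490, 0.440, 0.375, 0.427 and 0.844 in the none group, with samples here and below in the order given for EGLN3. It spanned 4.97-fold, the 3 samples were again the highest of their groups, and the other both samples lay below all TNF and none samples.

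**Figure D2:**
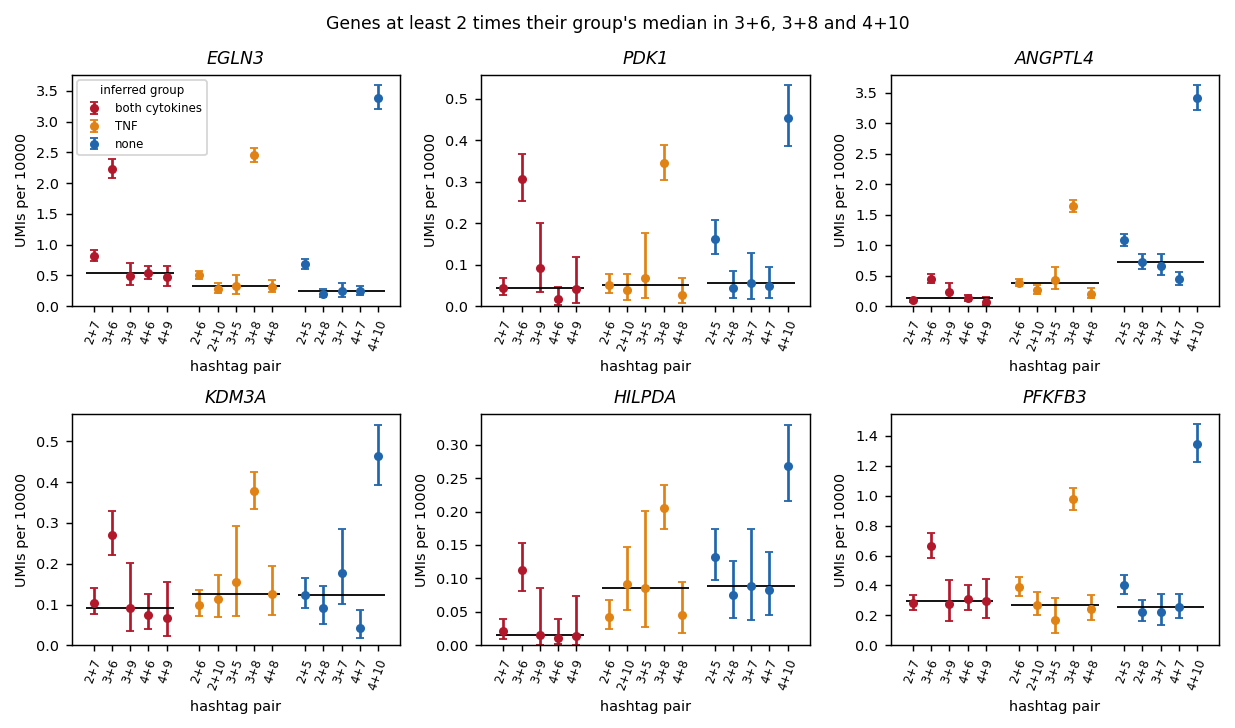
Levels in UMIs per 10000 of 6 members in each hashed sample, with exact 95% Poisson intervals, black lines at the median of each inferred group, and a vertical axis of its own for each gene. Samples 3+6, 3+8 and 4+10 are the highest of their groups in all 6 panels, with EGLN3 at 2.23, 2.46 and 3.39.

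Among genes that redirect metabolism, PDK1, the kinase that closes pyruvate dehydrogenase and keeps pyruvate out of mitochondria, rested on few counts outside the 3 samples. It lies on chromosome 2 (172555373 to 172608669, + strand). Its level was 0.0440, 0.306, 0.0925, 0.0161 and 0.0401 in the both group, 0.050, 0.0377, 0.0687, 0.344 and 0.0263 in the TNF group, and 0.163, 0.0429, 0.0551, 0.0475 and 0.454 in the none group. The 3 high samples were 6.96, 6.88 and 8.24 times their group medians, and the groups overlapped. ANGPTL4, a secreted inhibitor of lipoprotein lipase on chromosome 19 (8363289 to 8374373, + strand), had the widest span of the measured members. It measured 0.0949, 0.448, 0.231, 0.123 and 0.0668 in the both group, 0.385, 0.258, 0.429, 1.64 and 0.204 in the TNF group, and 1.08, 0.719, 0.661, 0.445 and 3.42 in the none group. The highest was 51.1 times the lowest (95% interval 21.8 to 158). Within each group the marked sample was 3.63, 4.25 and 4.75 times the median, and the medians themselves stepped down to 0.123 in the both group and 0.385 in the TNF group, against 0.719 in the none group.

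HILPDA, a lipid droplet protein that inhibits triglyceride breakdown, had the same shape on few counts, 429 over all samples. It measured 0.0208, 0.113, 0.0154, 0.0107 and 0.0134 in the both group, 0.0425, 0.0916, 0.0859, 0.205 and 0.0460 in the TNF group, and 0.132, 0.0751, 0.0882, 0.0830 and 0.268 in the none group. Of the both samples, 4 held between 1 and 9 counts, and only HTO3+HTO6, with 42 counts, reached the levels of the other groups. PFKFB3, which makes the activator of phosphofructokinase, is counted here with the glycolytic genes. It behaved like a HIF target, at 0.282, 0.665, 0.277, 0.311 and 0.294 in the both group, 0.388, 0.269, 0.172, 0.976 and 0.243 in the TNF group, and 0.400, 0.225, 0.220, 0.255 and 1.35 in the none group. Only 0.593% of the variance of its log2 level lay between groups, the lowest value of any measured glycolytic member.

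KDM3A, a histone H3 lysine demethylase, spanned 11.2-fold. Its level was 0.104, 0.271, 0.0925, 0.0751 and 0.0668 in the both group, 0.100, 0.113, 0.155, 0.378 and 0.125 in the TNF group, and 0.124, 0.0912, 0.176, 0.0415 and 0.463 in the none group. The 3 samples were 2.93, 3.03 and 3.74 times their group medians. Among secreted and stress factors, ADM, the vasodilator peptide adrenomedullin, measured 0.502, 0.998, 0.632, 0.595 and 0.481 in the both group, 0.193, 0.334, 0.378, 0.920 and 0.374 in the TNF group, and 0.367, 0.343, 0.386, 0.445 and 1.22 in the none group. Outside the 3 samples all both samples lay above all TNF and none samples. DDIT4, an inhibitor of mTORC1, measured 0.926, 1.70, 1.09, 0.767 and 1.26 in the both group, 1.56, 1.37, 1.44, 2.53 and 1.18 in the TNF group, and 0.971, 0.622, 0.749, 0.427 and 2.38 in the none group. Its none samples other than HTO4+HTO10 lay below all TNF samples. NDRG1, a stress-induced protein linked to differentiation, measured 0.347, 0.443, 0.740, 0.510 and 0.401 in the both group, 0.313, 0.442, 1.05, 0.875 and 0.269 in the TNF group, and 0.341, 0.322, 0.408, 0.320 and 1.38 in the none group. Unlike the others it was highest in the small samples HTO3+HTO9 and HTO3+HTO5 within the both and TNF groups.

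The remaining 8 measured HIF targets spanned between 2.05-fold (BNIP3L, a mitophagy receptor) and 4.15-fold (MXI1) and did not meet the spanning rule. VEGFA, the main blood vessel growth factor, lay between 0.333 and 0.588 in the both group, 0.587 and 0.910 in the TNF group and 0.596 and 0.994 in the none group. Its share of variance between groups, 52.5%, was the highest of the HIF targets, and all both samples lay below all none samples, at a ratio of medians of 0.701. CA9, the membrane carbonic anhydrase that is among the best known hypoxia markers, did not have the pattern. Its levels in HTO3+HTO6, HTO3+HTO8 and HTO4+HTO10 were 0.137, 0.135 and 0.139, the lowest of the both and TNF groups and the second lowest of the none group, where the whole range was 0.113 to 0.395. The collagen-modifying hydroxylases P4HA1 and P4HA2 spanned 2.45-fold and 2.26-fold. INSIG2, which retains the sterol sensor complex in the endoplasmic reticulum, spanned 3.72-fold and was highest in HTO3+HTO6 (0.429), HTO3+HTO8 (0.543) and HTO4+HTO10 (0.619).

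The glycolytic set was much flatter, and its sum followed a different order. Its summed level was 52.2 to 70.0 in the both group, 55.6 to 80.8 in the TNF group and 60.3 to 74.5 in the none group, a 1.55-fold range, beside 3.63-fold for the HIF targets. HTO3+HTO6, HTO3+HTO8 and HTO4+HTO10 had 64.2, 73.6 and 72.2, each second highest in its group. The highest of each group were HTO3+HTO9 with 70.0, HTO3+HTO5 with 80.8 and HTO3+HTO7 with 74.5, all samples of at most 71 cells, in which the HIF targets summed to 6.54, 8.81 and 6.78. Without GAPDH the sum ran between 37.4 and 54.1, a 1.44-fold range, and HTO3+HTO9 and HTO3+HTO5 were still the highest of their groups, whereas HTO4+HTO10 (51.7) was the highest of the none group. Gene by gene, most were highest in HTO3+HTO8 in the TNF group and in HTO4+HTO10 in the none group. Of 17 measured glycolytic genes, 13 were highest of the none group in HTO4+HTO10 and 4 in HTO3+HTO7. In the TNF group 10 were highest in HTO3+HTO8 and 7 in HTO3+HTO5. In the both group 9 were highest in HTO3+HTO9 and 7 in HTO3+HTO6. These counts have no share over all measured genes beside them, and small samples vary more by counting, so they are descriptions only.

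**Figure D3:**
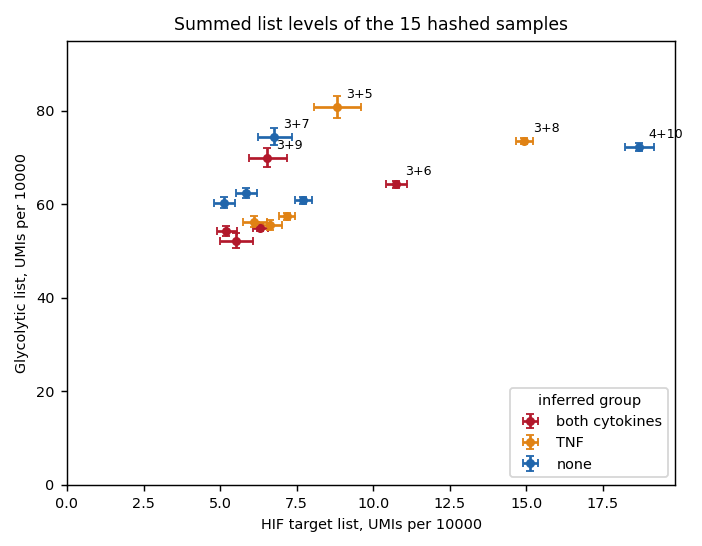
The summed HIF target level (horizontal) is plotted against the summed glycolytic level (vertical) for the 15 hashed samples, both in UMIs per 10000 from 0, with exact 95% Poisson intervals. Samples 3+6, 3+8 and 4+10 lie to the right at 10.8, 14.9 and 18.7, while 3+9, 3+5 and 3+7 are as high on the vertical axis at 6.54, 8.81 and 6.78 on the horizontal.

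The abundant enzymes varied least. PKM, a pyruvate kinase gene whose splice forms were not told apart, lay between 10.4 and 12.8 in all 15 samples, a 1.23-fold span. PFKP, the platelet-type phosphofructokinase, spanned 1.43-fold, TPI1, triosephosphate isomerase, 1.5-fold, ENO1, the main enolase, 1.57-fold and GAPDH 1.81-fold. LDHA, which turns pyruvate into lactate, spanned 2.28-fold, with 9.66 in HTO3+HTO6, 12.5 in HTO3+HTO8 and 11.7 in HTO4+HTO10, narrowly the highest of each group. The other both samples had 5.47 to 9.42, the other TNF samples 6.07 to 11.2 and the other none samples 6.76 to 11.5. PGK1 and PGAM1, the next steps after GAPDH, spanned 3.01-fold and 2.21-fold, and GPI, which converts glucose 6-phosphate, 3.40-fold.

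HK2, the hexokinase most often raised in tumours, spanned 14.4-fold, but its lowest sample, HTO4+HTO9, held 2 counts. It measured 0.102, 0.209, 0.139, 0.0966 and 0.0267 in the both group, 0.115, 0.0969, 0.206, 0.257 and 0.0919 in the TNF group, and 0.152, 0.204, 0.220, 0.148 and 0.383 in the none group. The marked sample was the highest of its group each time, and without HTO4+HTO9 the span was 4.17-fold. ENO2, the neuronal enolase, measured 0.0440, 0.0376, 0.0925, 0.0429 and 0.0668 in the both group, 0.0875, 0.0754, 0.103, 0.123 and 0.0394 in the TNF group, and 0.0749, 0.118, 0.0882, 0.0475 and 0.153 in the none group. In the both group HTO3+HTO6 was its lowest sample. ALDOC and ALDOA lay between 0.0568 and 0.136 and between 0.0134 and 0.108 over all samples.

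Between the inferred groups, few members differed. A member was called when all 5 levels of one group lay above, or all below, the 5 of the other and the ratio of the medians was at least 1.5 either way. For both over none, 1 of 34 measured members was called higher (HK1), where 6.84% of all measured genes were, and 2 were called lower (SLC2A1 and SLC16A3), where 12.6% of all genes were. For both over TNF, 1 was called higher (HK1) beside 4.37% of all genes, and 1 lower (SLC2A1) beside 4.45%. For TNF over none, 0 members were called in either direction, beside 2.92% of all genes called higher and 1.63% called lower. These counts are near or below the background, so as a set the members did not stand apart between the groups. The 3 comparisons share their groups and are not independent of each other.

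HK1, the hexokinase that acts on glucose in most tissues (chromosome 10, 69269984 to 69401884, + strand), was the 1 member called higher. Its level was 1.03 in HTO2+HTO7, 1.10 in HTO3+HTO6, 0.879 in HTO3+HTO9, 0.955 in HTO4+HTO6 and 0.975 in HTO4+HTO9 of the both group. It was 0.408, 0.318, 0.309, 0.476 and 0.335 in the TNF group and 0.349, 0.365, 0.253, 0.320 and 0.484 in the none group. The lowest both sample (95% interval 0.666 to 1.14) lay above the highest none sample (0.413 to 0.564). The ratio of medians was 2.80 for both over none and 2.91 for both over TNF, and 90.7% of the variance of the log2 level lay between groups. Within groups HK1 ranged 1.25-fold (both), 1.54-fold (TNF) and 1.91-fold (none), and over the alternatives run its both-over-none ratio stayed between 2.69 and 3.29. Its highest level of each group was in HTO3+HTO6 (1.10), HTO3+HTO8 (0.476) and HTO4+HTO10 (0.484).

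SLC2A1, the glucose transporter GLUT1 and a textbook HIF target (chromosome 1, 42925375 to 42959176, - strand), went the other way. It measured 0.484, 0.550, 0.832, 0.612 and 0.615 in the both group, 1.05, 0.996, 1.29, 1.04 and 1.23 in the TNF group, and 1.26, 1.51, 1.23, 1.59 and 1.68 in the none group. The both samples lay below all others, at 0.406 of the none median and 0.581 of the TNF median, with 87.2% of the variance between groups. In HTO3+HTO6 and HTO3+HTO8, where many HIF targets were high, SLC2A1 did not exceed its group's median (0.612 and 1.05), whereas in HTO4+HTO10 its level was the highest of all 15 samples. SLC16A3, the lactate exporter MCT4 (chromosome 17, 82228397 to 82261129, + strand), measured 1.07, 1.45, 1.00, 1.07 and 0.922 in the both group, 1.36, 1.41, 1.43, 1.93 and 1.44 in the TNF group, and 1.75, 1.58, 1.45, 1.66 and 2.09 in the none group. Its both-over-none ratio was 0.643, and the call was lost with TMM scaling, at 0.739, since the ratio then missed 1.5-fold, and with up to 30% mitochondrial UMIs, where the groups overlapped. HTO3+HTO6, HTO3+HTO8 and HTO4+HTO10 had the highest SLC16A3 level of their groups. SLC16A3 overlaps CSNK1D, at a mean level of 0.900, on the other strand.

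**Figure D4:**
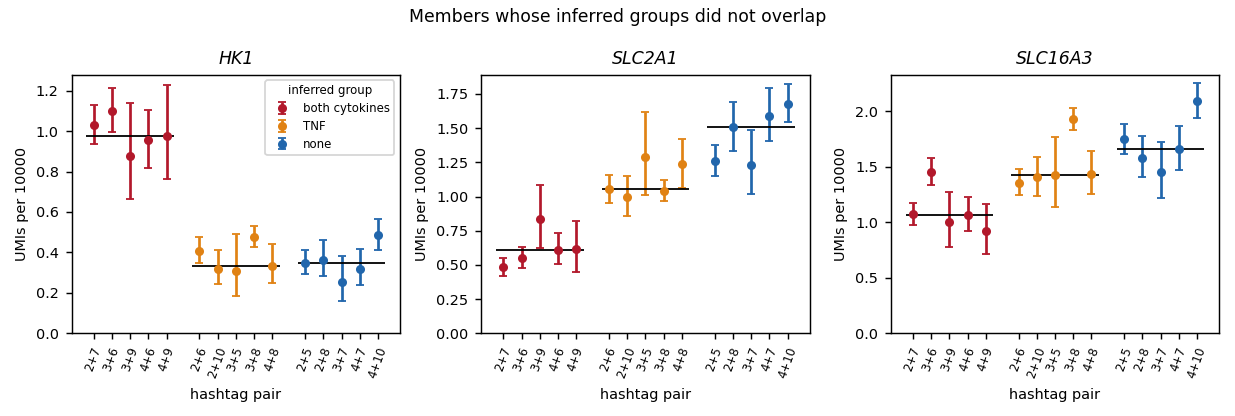
Levels in UMIs per 10000 of HK1, SLC2A1 and SLC16A3 in each hashed sample, on axes from 0, with exact 95% Poisson intervals and black lines at group medians. All 5 both samples of HK1 lie at or above 0.879 and all others at or below 0.484, while SLC2A1 is at most 0.832 in the both group and at least 0.996 elsewhere.

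The scale matters for smaller differences. Per 10000 UMIs, the median log2 ratio over all measured genes was -0.24 for both over none, -0.17 for both over TNF and -0.07 for TNF over none, against -0.02, -0.01 and -0.01 with TMM scaling. The median over measured HIF targets was -0.38, -0.40 and 0.03, and over measured glycolytic genes -0.23, -0.11 and -0.14. The glycolytic medians thus lay within 0.07 of the shift of all genes. The ratio of summed glycolytic levels, 0.881 for both over none, turned to 1.03 with TMM scaling, so it has no stable direction.

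Leaving out HTO3+HTO6, HTO3+HTO8 and HTO4+HTO10 together added calls among HIF targets. Since the samples left out were the highest of their groups, this narrows the ranges by construction, and the background moved to 7.42% higher and 14.9% lower for both over none, 4.83% and 6.67% for both over TNF, and 3.48% and 2.28% for TNF over none. For both over none, 6 of 34 measured members were then called lower, a count near the background of 14.9%. ANGPTL4 (0.158), HILPDA (0.168), EGLN1 (0.590) and HK2 (0.557) joined SLC2A1 and SLC16A3. For both over TNF, HILPDA (0.218), EGLN1 (0.465) and VEGFA (0.664) were called lower beside SLC2A1, and ADM higher (1.55) beside HK1. For TNF over none, DDIT4 was called higher (2.05) and ANGPTL4 lower (0.466). The counts for TNF over none, and those called higher in both over TNF, are also near their backgrounds. Among the 3 samples left out, ANGPTL4 and HILPDA kept the same order, at 0.448 and 0.113 in HTO3+HTO6 (both), 1.64 and 0.205 in HTO3+HTO8 (TNF) and 3.42 and 0.268 in HTO4+HTO10 (none).

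Across members, little of the variance lay between the inferred groups. The median share was 20.6% for HIF targets and 19.2% for glycolytic genes, beside 36.1% over all measured genes. The range was 0.957% (NDRG1) to 52.5% (VEGFA) among HIF targets and 0.593% (PFKFB3) to 90.7% (HK1) among glycolytic genes.

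Single cells were compared after thinning each to 5000 UMIs, which kept 2928 cells and left out 216. EGLN3 had a UMI in 50.3% of cells in HTO3+HTO6 (exact Clopper-Pearson interval 44.4% to 56.3%), 53.3% in HTO3+HTO8 (49.2% to 57.4%) and 58.9% in HTO4+HTO10 (52.8% to 64.8%). The medians of their groups were 25.2%, 19.7% and 10.6%. Before thinning the same 3 samples had 68.7%, 71.9% and 76.6%. HK1 had a UMI in 34.3% to 42.4% of thinned cells in the both group, 12.8% to 16.8% in the TNF group and 10.6% to 22.2% in the none group, and in 51.6% to 69.7%, 28.6% to 37.5% and 25.4% to 39.9% before thinning. No cell type that lacks these genes was at hand to measure background from free RNA.

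The excess of HIF targets in the 3 samples was widest in the upper part of their cells. The median cell held 4 HIF target UMIs of 5000 in HTO3+HTO6, 6 in HTO3+HTO8 and 7 in HTO4+HTO10, against 2 or 3 in the other 12 samples. The 90th percentile was 12, 15 and 21, against 5 to 8 in the others. The lower part differed less: the 10th percentile was 1, 1.8 and 2 in the 3 samples and 0 to 2 in the others. Cells without any HIF target UMI were 3.82%, 3.40% and 2.96% of the 3 samples and 2.04% to 12.7% of the others.

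**Figure D5:**
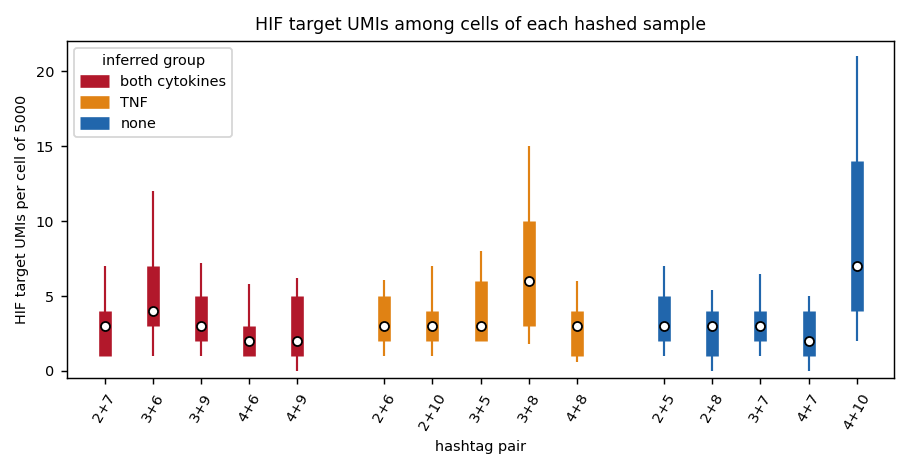
HIF target UMIs per cell after thinning to 5000 UMIs, for the cells of each hashed sample: thin lines run between the 10th and the 90th percentile, thick bars between the quartiles, and white dots mark medians. The bars of 3+6, 3+8 and 4+10 reach 7, 10 and 14 UMIs, and in the other 12 samples at most 6.

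The Spearman correlation of the summed HIF and glycolytic UMIs over cells was 0.34 in HTO3+HTO6 (288 cells), 0.45 in HTO3+HTO8 (589 cells) and 0.46 in HTO4+HTO10 (270 cells). It lay between -0.24 and 0.18 in the other 12, where HIF target counts are few, so a weak value there is no finding. Cells of a sample share their library and, after thinning, their depth. Among glycolytic genes, the correlation of a gene with the sum of the other members of its set was above 0 in all 15 samples for ENO1, GAPDH, LDHA, TPI1 and PKM, with medians of 0.30, 0.38, 0.38, 0.38 and 0.23. Among HIF targets this held for NDRG1, at 0.03 to 0.47, whereas EGLN3 ran between -0.10 and 0.59. The glycolytic genes above 0 throughout are the most abundant members, and the part of abundance in these correlations was not tested. PGK1 and GPI, each above 0 in 14 samples, had medians of 0.27 and 0.14. SLC2A1, HK1, HK2 and SLC16A3 had medians of 0.014, 0.005, 0.001 and -0.004.

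Other genes of the pathway, from lists chosen with earlier results known, gave the setting of these members. Of 17 genes that make or control HIF, 14 were measured, and for both over none 2 were called higher and 0 lower, beside 6.84% and 12.6% of all measured genes. EGLN2, a prolyl hydroxylase, lay between 0.515 and 0.775 in the both group, 0.579 and 0.670 in the TNF group and 0.277 and 0.429 in the none group, and was called higher in both over none (1.93) and in TNF over none (1.77). CUL2, the scaffold of the VHL ligase, was called higher in both over none (1.62). HIF1A itself lay between 2.94 and 3.50 in the both group, 2.1 and 2.96 in the TNF group and 1.92 and 2.66 in the none group, at a both-over-none ratio of 1.41 that missed the 1.5 threshold. CITED2, which competes with HIF for its coactivators, was the 1 spanning gene of the 14, at 7.19-fold, where 10.1% of all measured genes spanned.

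Of 36 other HIF targets, 22 were measured and 8 spanned the samples, beside 10.1% of all measured genes. For both over none 2 were called higher and 2 lower, beside 6.84% and 12.6%. STC1, a secreted glycoprotein, was called higher in both over none (2.92). ERRFI1, a brake on EGF receptor signalling, was called lower in both over none (0.318) and in both over TNF (0.354). HMOX1, which degrades haem, spanned 20.5-fold and STC2 15.1-fold, both highest in HTO3+HTO7 and not in the 3 samples with high HIF targets. BHLHE40, a transcriptional repressor, spanned 7.06-fold and was highest in HTO4+HTO10. None of these 3 was called between groups. Summed over the 36 genes, the highest samples were HTO3+HTO9 in the both group (12.5), HTO3+HTO5 in the TNF group (15.4) and HTO3+HTO7 in the none group (18.6). The sum of these other targets was thus not highest in the 3 samples where the HIF target members were high.

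Of 29 other genes of glucose handling, 21 were measured and 2 spanned the samples (PDK4 and ARRDC4, a regulator of glucose uptake), and 0 were called higher in the both group. The spanning count and the 3 called lower in both over none are near the background of 10.1% and 12.6%. PDK4, a pyruvate dehydrogenase kinase like PDK1, was called lower in both over none (0.20) and in TNF over none (0.289). PDHB, a subunit of pyruvate dehydrogenase (0.558), and TKT, the transketolase of the pentose phosphate pathway (0.618), were called lower in both over none. HKDC1, a further hexokinase, was called higher in TNF over none (1.95) and lower in both over TNF. SLC16A1, the lactate carrier MCT1, was also called lower in both over TNF. Summed over the 29 genes, HTO3+HTO6 (15.3), HTO3+HTO8 (16.6) and HTO4+HTO10 (18.3) were the lowest of their groups. The highest samples of the both, TNF and none groups had 16.6, 18.7 and 20.2.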

How the data were processed

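The authors deposited UMI counts, not normalized, of genes and hashtags for each barcode. Cell Ranger 5.0.1 made the matrix per the file headers. The submitters' processing notes give Cell Ranger 2.1.1 and GRCh38, and which version applies was not settled. The hashtag counts share the barcodes of the gene counts (5267 of 5269 barcodes hold both), and no label maps hashtags to treatments. Cells were kept with at least 1000 genes and at most 20% mitochondrial UMIs, and given to their top pair of hashtags when the second reached 10 counts and was at least 3-fold above the third. This left out 394 kept cells with no clear pair. They may include droplets with cells of several samples and cells with weak hashtag counts, which were not told apart. Doublets within a hashed sample were not sought.

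Counts were summed per hashed sample and divided by its total (per 10000 UMIs). Levels carry exact Poisson intervals, shares exact Clopper-Pearson intervals. All 15 hashed samples come from a single library, so no p-value was computed. Variance shares use log2 of the level plus 0.05. A count of 0 was set to 3 counts in spans. The named genes were those called in any contrast or spanning, given in full, with other members by range, and of each other list at most 6 genes called or spanning, the largest ratios first, of which 1 is not reported here. HIF1A was named besides. Members, lists and inferred groups were chosen with earlier results of these data known. Positions are from GENCODE 29 and promoters from RefSeq. Alternatives included TMM scaling (edgeR 4.0.16), other cell filters and each hashed sample left out. Tools were Python 3.11.15, numpy 2.4.6, scipy 1.17.1, pandas 2.3.3 and R 4.3.3.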

Additional observations from a re-analysis of the deposited data

Results flagged for a closer look

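Within inferred groups of 5, a hashed sample is named here when its gap to the nearest other exceeded 0.71 of the group's range (Dixon's 95% critical value). Chance flags about 1 in 20 groups of values not chosen for their range. The genes looked at here were those called or spanning, so that rate does not apply to the 24 of 51 gene or list groups flagged, 8 each in HTO3+HTO6, HTO3+HTO8 and HTO4+HTO10. Each flagged value was the highest of its group, and the cause was not tested.

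In HTO3+HTO6 of the both group these were the HIF target sum (10.8 UMIs per 10000), EGLN1 (0.577), EGLN3 (2.23), PDK1 (0.306), KDM3A (0.271), HILPDA (0.113), PFKFB3 (0.665) and SLC16A3 (1.45). In HTO3+HTO8 of the TNF group they were ANGPTL4 (1.64), EGLN3 (2.46), ADM (0.920), PDK1 (0.344), KDM3A (0.378), DDIT4 (2.53), PFKFB3 (0.976) and SLC16A3 (1.93). In HTO4+HTO10 of the none group they were the HIF target sum (18.7), ANGPTL4 (3.42), EGLN1 (0.844), EGLN3 (3.39), ADM (1.22), NDRG1 (1.38), DDIT4 (2.38) and PFKFB3 (1.35).

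Barcodes outside the comparisons also held these transcripts. The 394 kept cells without a clear pair had 9.21 HIF target and 65.4 glycolytic UMIs per 10000, beside 9.64 and 63.5 in the 3144 paired cells. The 1731 removed barcodes, with a median of 4507 UMIs and a median mitochondrial share of 29.2%, had 6.91 and 44.0.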

How the results depend on the processing

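Of 923 alternative values, 859 stayed within 1.5 times the original count or within 1 SD of the original value, 64 moved further, and 0 turned the direction of a called member. No paired analysis was possible because the labels give no replicate numbers and do not say which tumour a hashed sample came from.

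Both-over-none members called lower, 2 in the original setting, were 1 with TMM scaling, at most 30% mitochondrial UMIs or a median ratio of 2, and 2 to 7 when 1 hashed sample was left out, with 7 without HTO3+HTO6. Both-over-TNF members called lower, originally 1, were 0 at most 10% mitochondrial UMIs or a median ratio of 2, 2 with the mean of per-cell levels, and 1 to 4 with 1 hashed sample left out (4 without HTO3+HTO6, 3 without HTO2+HTO10). Leaving out HTO3+HTO8 gave 1 member lower in TNF over none and 2 higher in both over TNF, where the left-out range was 0 to 1 and 1 to 2. Leaving out HTO4+HTO10 gave 1 higher in TNF over none and 2 higher in both over none, with ranges of 0 to 1 and 1 to 2. Without HTO3+HTO6, HTO3+HTO8 and HTO4+HTO10 together, an alternative chosen after seeing the data, the counts were 1 higher and 1 lower in TNF over none, 6 lower in both over none, and 2 higher and 4 lower in both over TNF, and 4 HIF targets and 2 glycolytic genes spanned. The summed glycolytic level in both over none, originally 0.881, was 1.03 with TMM scaling and 1.02 at most 10% mitochondrial UMIs, and in both over TNF, originally 0.957, it was 1.10 with TMM scaling. A span of 2-fold with a lower bound over 1.5 called 14 HIF targets and 10 glycolytic genes, and a minimum mean level of 0.2 left 2 glycolytic genes. The cause of these moves was not tested, apart from the stricter or looser thresholds themselves. Shares of all measured genes are at hand for the original setting and without HTO3+HTO6, HTO3+HTO8 and HTO4+HTO10 together. Counts in the other settings have no such background, and a looser rule calls more genes of any kind. Small hashed samples limit low genes: HILPDA spans 25.0-fold in all cells and 2.48-fold after thinning, where counts of 0 enter at the floor.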

Other observations

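Genes with the same shape as the HIF targets were looked for over all 9361 measured genes, a search made after the values were seen. At least 2 times the group median in HTO3+HTO6, HTO3+HTO8 and HTO4+HTO10 alike were 12 genes, of which 6 are members described above (PDK1, EGLN3, ANGPTL4, KDM3A, HILPDA and PFKFB3). The other 6 were MIR210HG, ANKZF1, AL354707.1, IFIT2, FUT11 and BHLHE41. MIR210HG, the host transcript of the hypoxia-induced microRNA miR-210, was 3.38, 7.15 and 6.02 times its group medians in HTO3+HTO6, HTO3+HTO8 and HTO4+HTO10. FUT11, a fucosyltransferase, was 2.38, 2.08 and 3.47 times its group medians in the same order. IFIT2, an interferon-induced gene that is no HIF list member here, was 2.12, 4.65 and 4.87 times its group medians, at levels of 2.40, 0.397 and 0.289 UMIs per 10000.

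At most 0.5 times the group median in the same 3 samples were 3 genes. STC2, a stanniocalcin from the list of other HIF targets, was 0.223, 0.343 and 0.472 of its group medians. AKR1C1, a ketosteroid reductase, was 0.406, 0.442 and 0.413 of them, and FRMD6, a FERM domain protein, 0.261, 0.412 and 0.171, on few counts. These genes were selected on the same samples they describe, so the ratios are descriptions.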
